A study of Mus musculus with 9 samples.

Results

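The transcripts described here are those of 9 genes that control mitochondrial number and oxidative capacity, measured in mouse brown fat: the PGC-1 coactivators Ppargc1a, Ppargc1b and Pprc1, the estrogen-related receptors Esrra, Esrrb and Esrrg, and the biogenesis factors Nrf1, Gabpa and Tfam. They were chosen by name, as families, though earlier results of these data were known when they were chosen. All 9 were found, once each, among the 55416 Ensembl gene identifiers of the count table, and all 9 were among the 12260 genes with a mean of at least 1 CPM (count of a gene per 1000000 counts of its library).

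The series asked what loss of Ucp1, the uncoupling protein that lets brown adipocytes release energy as heat, does to adult brown fat. C57BL/6J mice that express Cas9 were given an AAV8 vector by injection into the interscapular brown fat, and tissue RNA was sequenced. The vector was AAV8-Control sgRNA in 5 samples and AAV8-UCP1 sgRNA in 4 samples. The sample labels put the tissue at 8 to 10 weeks of age. Both sets of mice lived at 22 °C, and the time after injection was 14 days. All mice therefore carried Cas9 and received a vector. The labels do not name the promoter that drives Cas9. RNA came from the tissue as a whole, without a stated sort of the cells that took up the vector.

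The columns of the 9 libraries carry the tissue and a code, and 0 of the 9 codes occur in the labels. They are called library 1 to library 9 here, in column order, which is a name only. No library was therefore given to a guide, no comparison between guides was made, and no mean or standard deviation over the mixed libraries is reported. Each value below is given by library, or as the lowest, the median and the highest of the 9. Nothing in the labels says that each sample came from a separate mouse, so p-values measure only the spread between these libraries, which may be technical.

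The libraries held 15460829 to 17909534 counts. The 37 genes of the mitochondrial genome took 22.3% to 33.9% of them. Marker genes of brown adipocytes (7 of 7) and of adipocytes (5 of 5) had a mean of at least 1 CPM, and none of these 12 was at 0 in any library. Skeletal muscle markers (10 of 10 at a mean of 1 CPM or more) summed to between 175 CPM in library 2 and 3366 CPM in library 5, a 19.2-fold range, and muscle also expresses these coactivators and receptors. Endothelial markers summed to 340 to 537 CPM and macrophage markers to 26.4 to 76.3 CPM. The 4 T and B cell markers had means under 1 CPM, and 2 of them were at 0 in at least 1 library. In whole tissue, fewer cells of a type and less RNA per cell cannot be told apart.

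PGC-1 proteins do not bind DNA themselves: they are recruited by nuclear receptors and other factors and bring histone acetyltransferases and the Mediator complex to the gene. PGC-1α, encoded by Ppargc1a, is induced by cold and β-adrenergic signalling in brown fat and is the member best known for raising Ucp1 transcription. The estrogen-related receptors are orphan nuclear receptors that bind no estrogen, use PGC-1 proteins as their activating partners and occupy the promoters of many genes of respiration. NRF-1 and GABP (nuclear respiratory factors) act on overlapping sets of mitochondrial genes, among them Tfam, whose product packages and transcribes mitochondrial DNA.

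Levels between genes were compared per kilobase of annotated exon. Esrra had the highest median, 31.7 CPM per kilobase, followed by Ppargc1b at 21.8, Ppargc1a at 14.1 and Gabpa at 13.0 CPM per kilobase. Tfam (5.45), Esrrg (3.73) and Pprc1 (2.42 CPM per kilobase) were lower, and Esrrb (0.850) and Nrf1 (0.842 CPM per kilobase) had the lowest medians. In this order, ranges over the 9 libraries were apart for neighbours only between Gabpa and Tfam and between Pprc1 and Esrrb. Within a library, Esrra exceeded Ppargc1b in 8 of 9 libraries, Ppargc1b exceeded Ppargc1a in 7 of 9, and Ppargc1a exceeded Gabpa in 5 of 9. Tfam exceeded Esrrg in 7 of 9 libraries, and Esrrg exceeded Pprc1 in 9 of 9 although their ranges met. Levels depended on the length used. With the longest principal transcript the median of Esrra was 62.1 CPM per kilobase, and Gabpa (14.8) stood above Ppargc1a (14.4 CPM per kilobase). Nrf1 moved most: its annotated exons span 10282 bases, but its longest principal transcript only 1879, and with that length its median was 4.60 CPM per kilobase, above Esrrb in 9 of 9 libraries.

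**Figure D1:**
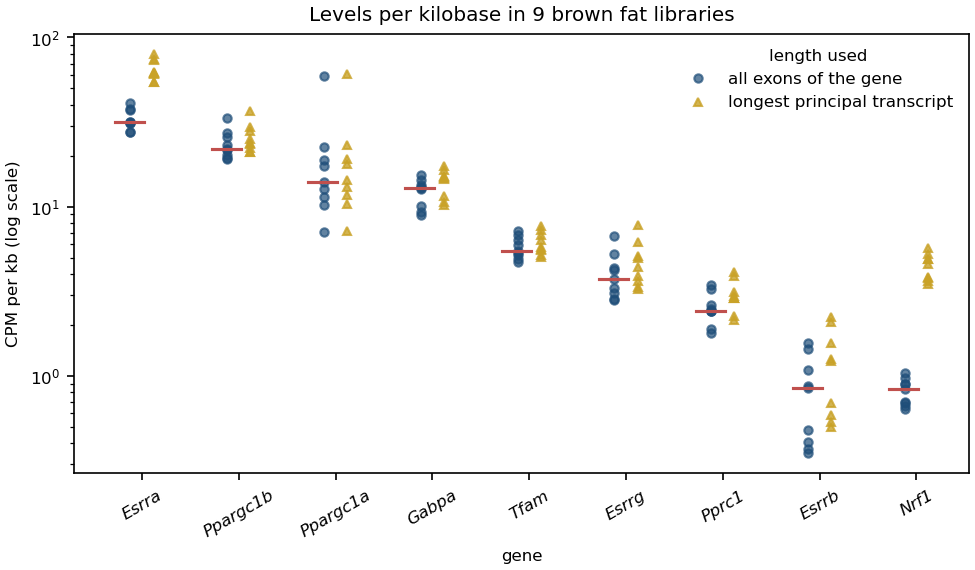
Level of each gene in CPM per kilobase (log axis) in the 9 brown fat libraries, with 1 point per library; circles use all annotated exons, triangles the longest principal transcript, and the red line is the median of the circles. Esrra was highest (median 31.7) and the Ppargc1a circles ran from 7.08 to 59.5, while Nrf1 moved with the length used.

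Ppargc1a varied most of the 9 genes. Its level was lowest in library 3 at 46.7 CPM, had a median of 92.8 CPM and was highest in library 6 at 392 CPM, an 8.41-fold range. The other libraries held 67.2 CPM (library 1), 75.6 CPM (library 4), 84.2 CPM (library 9), 92.8 CPM (library 8), 115 CPM (library 2), 125 CPM (library 5) and 150 CPM (library 7). A single library thus stood far above the rest, at 4.43 times the median of the other libraries. Without it the range was 3.20-fold, below that of Esrrb (4.47-fold), so the first rank of Ppargc1a rested on that library. The counts behind these values ran from 770 to 7028, so counting error was small beside the differences: the exact Poisson interval (95%) was 43.4 to 50.1 CPM in the lowest library and 383 to 402 CPM in the highest. These intervals, here and below, cover counting error only, since PCR copies are not independent molecules. Library 6 was not extreme for skeletal muscle markers, whose sum of 876 CPM there was the median of the 9 libraries. It had the lowest sum of the 7 brown adipocyte markers, Ucp1 among them, at 3159 CPM in a range up to 7051 CPM (library 2). Ucp1 alone gave 396 CPM of that sum in library 6 and 4620 CPM in library 2. The sum therefore depends strongly on Ucp1 and does not rank the libraries by brown adipocyte RNA apart from it. The part of muscle or brown adipocyte RNA in the level of Ppargc1a was not tested.

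Ppargc1b, the close relative of Ppargc1a that is not known for a response to cold, was much more even. It was lowest in library 2 at 76.5 CPM, had a median of 87.0 CPM and was highest in library 5 at 134 CPM, a 1.75-fold range. Library 5 was also the one with the most skeletal muscle marker RNA and library 2 the one with the least; their part in these values was not tested. In library 6, where Ppargc1a peaked, Ppargc1b stood at 86.3 CPM, next to its median. Pprc1, the family member regulated by growth signals, ranged from 11.2 CPM (library 8) through a median of 15.2 CPM to 21.6 CPM (library 6), or 1.92-fold. Its second highest value, 20.4 CPM, was in library 7, which also held the second highest Ppargc1a level.

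**Figure D2:**
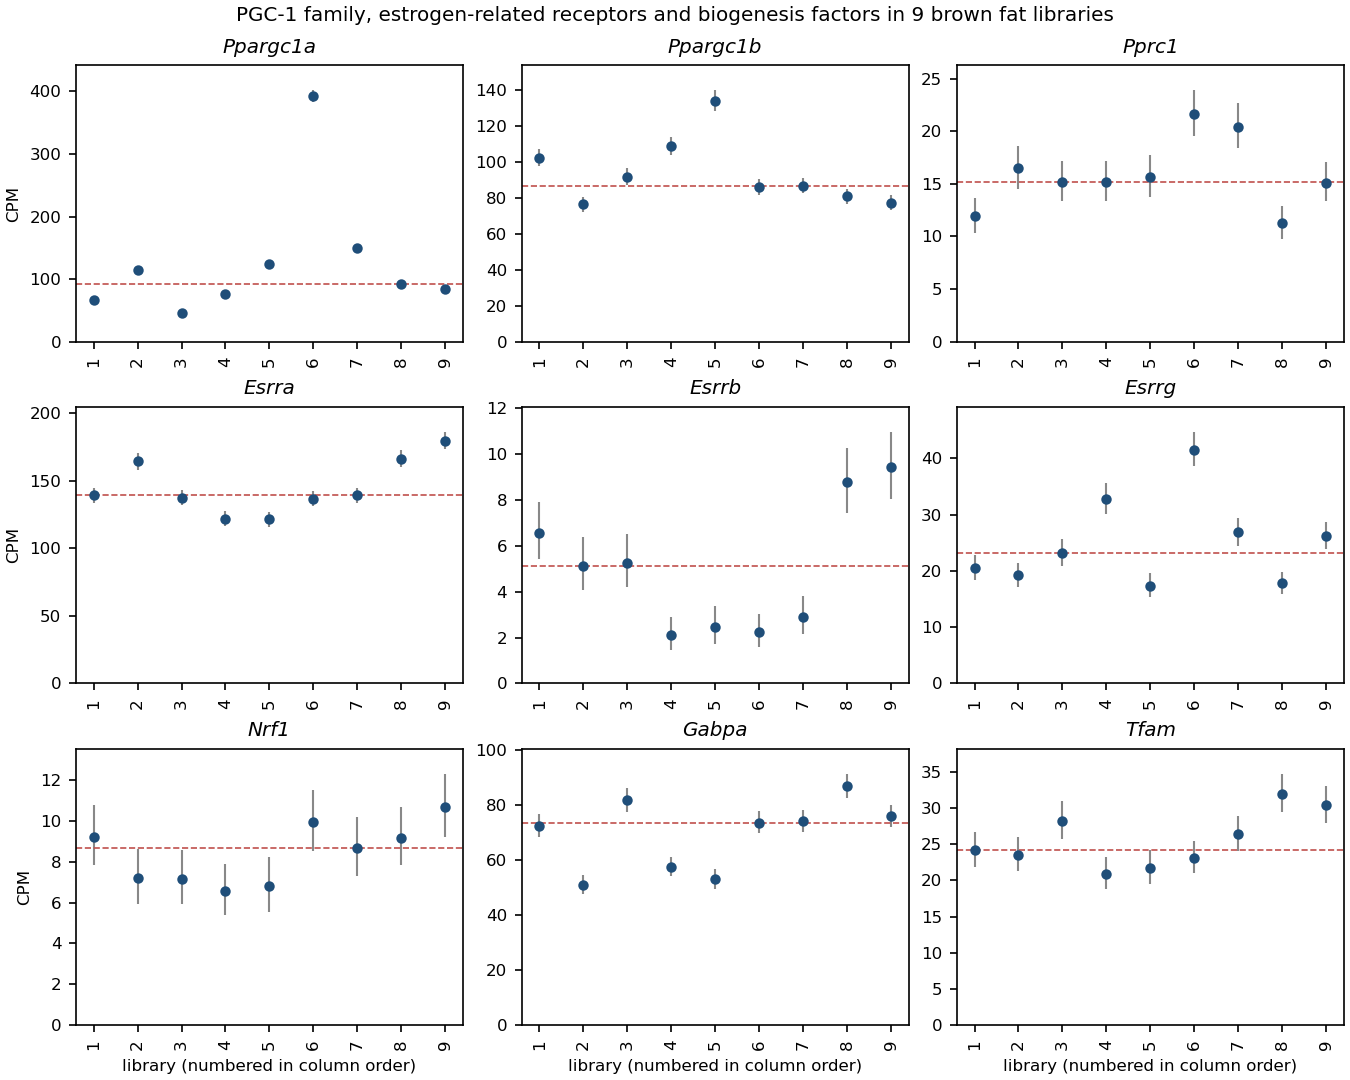
CPM of each of the 9 genes (linear axes from 0) in each library, in the column order of the deposited table; bars are exact Poisson intervals (95%) of the count and the dashed line is the median. Ppargc1a stood at 392 CPM in library 6 against 46.7 to 150 CPM elsewhere, while Esrra stayed between 122 and 180 CPM.

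The make-up of the PGC-1 family therefore differed between libraries, which a ratio within a library shows independently of its depth. The log2 ratio of Ppargc1a to Ppargc1b counts ranged from -0.98 in library 3 through a median of 0.12 to 2.19 in library 6, and it was above 0 in 5 of 9 libraries. Per kilobase, the median share of the family over the libraries was 56.1% for Ppargc1b, 37.0% for Ppargc1a and 5.88% for Pprc1, each share taken by itself. In library 6 Ppargc1a made up 70.4% and Ppargc1b 25.6%. In library 7 they were close, at 47.5% and 45.7%, and with the principal transcript lengths Ppargc1a was below Ppargc1b there (23.1 against 23.8 CPM per kilobase). At the other end, in library 3, Ppargc1a made up 21.8% and Ppargc1b 70.8%. The ratio of Pprc1 to Ppargc1b moved less, from -3.11 through a median of -2.60 to -2.0 on the log2 scale. The counts are per gene, so the alternative first exons and truncated forms of Ppargc1a were not separated.

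**Figure D3:**
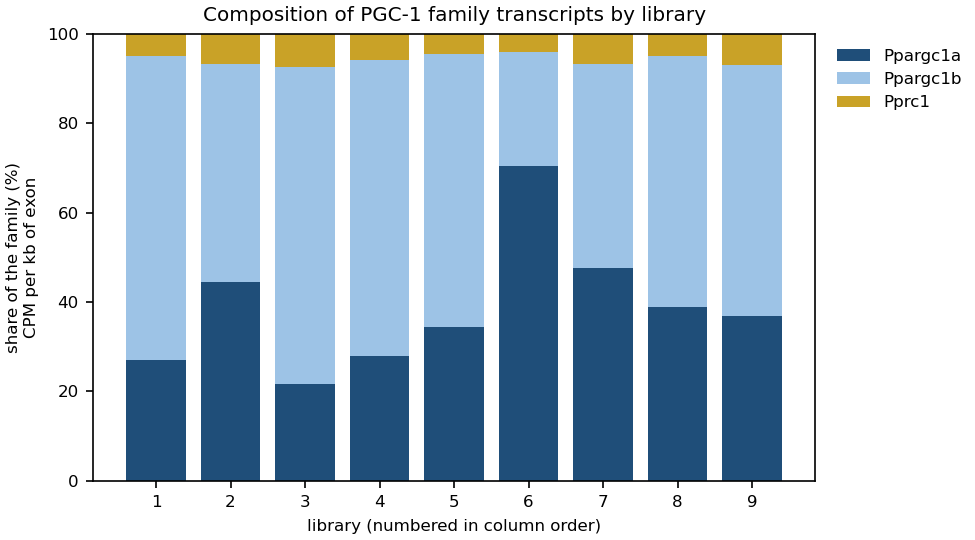
Share of Ppargc1a, Ppargc1b and Pprc1 in the summed level of the PGC-1 family (percent, CPM per kilobase of exon) in each library. Ppargc1a took 70.4% in library 6 and 21.8% in library 3, and Pprc1 stayed between 4.07% and 7.41%.

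Among the estrogen-related receptors Esrra was the main form in all 9 libraries. Its range was the smallest of the 9 genes with the column sum, but not with TMM or DESeq2 sizes, where Tfam had the smallest (1.38-fold and 1.37-fold), nor without library 4 or 8 (Tfam) or library 5 (Ppargc1b). It was lowest in library 5 at 122 CPM, had a median of 139 CPM and was highest in library 9 at 180 CPM, a 1.48-fold range. It made up 81.5% to 90.5% of the receptor family per kilobase.

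RefSeq windows of 250 bases before the start site (build GRCm38.p6, both strands searched) were matched by symbol for 8 of the 9 genes, Ppargc1b being the other. Of 7 motifs searched, 4 full-length ones were kept after their matches had been seen, and the 2 windows printed were chosen because they hold a match. The letters GCATGCGC (NRF-1) occurred in the Esrra window, starting 34 bases before the RefSeq start site, and in 2.26% of all 32851 windows. The letters CCGGAAGT (GABP, an ETS factor) occurred in the Tfam window, starting 47 bases before the RefSeq start site, and in 2.88% of all windows. Its start site in GENCODE vM21, which the exon lengths use, lies farther out than the RefSeq one, so by that annotation the Tfam motif is 189 bases inside the gene; the Esrra motif is 29 bases before the GENCODE start. AAGGTCA (the estrogen-related receptor element, 4.08% of windows) and TGACGTCA (the cAMP response element, 1.55%) were in none of the windows of the 8 genes. The other letters searched were TCAAGGTCA (0.387% of windows), found for 0 of the 8 genes, TGACG (17.8%), found for Ppargc1a and Esrrb, and CGGAAG (13.6%), found for Gabpa and Tfam; they overlap the full-length motifs, of which they are an extended form or the core. A match is only a run of letters. Capitals mark the motif, and both stretches are on the minus strand, read 5′ to 3′, at chr19:6921814-6922058 for Esrra and chr10:71238073-71238102 for Tfam.
Esrra: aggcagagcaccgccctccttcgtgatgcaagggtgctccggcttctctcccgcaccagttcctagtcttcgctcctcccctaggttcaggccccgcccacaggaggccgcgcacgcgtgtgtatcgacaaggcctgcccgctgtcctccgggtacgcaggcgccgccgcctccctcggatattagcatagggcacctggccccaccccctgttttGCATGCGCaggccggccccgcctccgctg
Tfam: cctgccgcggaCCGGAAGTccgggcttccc

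Esrrg, a receptor known from muscle, heart and other oxidative tissues, had a median of 23.2 CPM. It was lowest in library 5 at 17.3 CPM and highest in library 6 at 41.5 CPM, a 2.40-fold range. Its lowest value fell in the library with the most skeletal muscle marker RNA, and the part of muscle in its level was not tested. The log2 ratio of Esrra to Esrrg counts was 1.72 in library 6, had a median of 2.76 and reached 3.23 in library 8, so Esrra counts exceeded Esrrg counts in 9 of 9 libraries.

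Esrrb, the receptor best known from early embryos and pluripotent cells, was rare but variable. Its counts ran from 36 to 167 per library. The level was 2.11 CPM in library 4, 2.23 CPM in library 6, 2.46 CPM in library 5 and 2.90 CPM in library 7. It was 5.14 CPM in library 2, 5.27 CPM in library 3, 6.58 CPM in library 1, 8.77 CPM in library 8 and 9.42 CPM in library 9. This 4.47-fold range was larger than counting error, with exact Poisson intervals (95%) of 1.47 to 2.91 CPM in the lowest library and 8.04 to 10.96 CPM in the highest. Esrrb made up 0.967% to 3.43% of the receptor family per kilobase.

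The biogenesis factors had ranges across libraries near or below the median range of all genes (1.70-fold). Nrf1, the gene of the transcription factor NRF-1 and not of the stress factor NRF2, ranged from 6.55 CPM (library 4) through a median of 8.65 CPM to 10.7 CPM (library 9), or 1.63-fold. Gabpa, which encodes the DNA-binding subunit of GABP, ranged from 51.1 CPM (library 2) through 73.7 CPM to 87.0 CPM (library 8), or 1.70-fold. Tfam ranged from 20.9 CPM (library 4) through 24.2 CPM to 31.9 CPM (library 8), or 1.53-fold. For each of the 9 genes the Poisson intervals of the lowest and the highest library were apart. The 2 libraries compared were picked as the extremes for each gene, which favours such an outcome. The share of all genes with intervals apart was not computed, so nothing particular to the 9 genes follows. Gabpa exons overlap those of Atp5j on the opposite strand by 397 bases, those of Pprc1 overlap Ldb1 by 177 bases, and those of Esrra overlap Trmt112 by 73 bases. Esrra also shares 91 bases on the same strand with Mir6990, a microRNA gene, which no strand setting would separate. Whether the counting used strand is not stated, so reads of the bases on opposite strands cannot be told apart.

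The spread of the 9 genes was set beside that of all genes. The highest CPM was at least 4 times the lowest for Ppargc1a and Esrrb, 2 of 9, where 6.68% of the 12260 genes passed. It was at least 2 times the lowest for 3 of 9, Esrrg being the other, where 32.3% of all genes passed. Without library 6 these counts were 1 and 2 of 9, since Ppargc1a then ranged 3.20-fold and Esrrg 1.89-fold. Without the 10 most abundant genes in the library size the count at 4-fold was 1 of 9. The shares of all genes passing in these other settings are not given. The percentages above hold for the 9 libraries with the column sum, so these counts stand without a background. The median range was 1.75-fold over the 9 genes and 1.70-fold over all genes tested. Of all genes, 97.8% had a smaller range than Ppargc1a and 94.6% a smaller range than Esrrb, but only 26.8% a smaller range than Esrra.

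**Figure D4:**
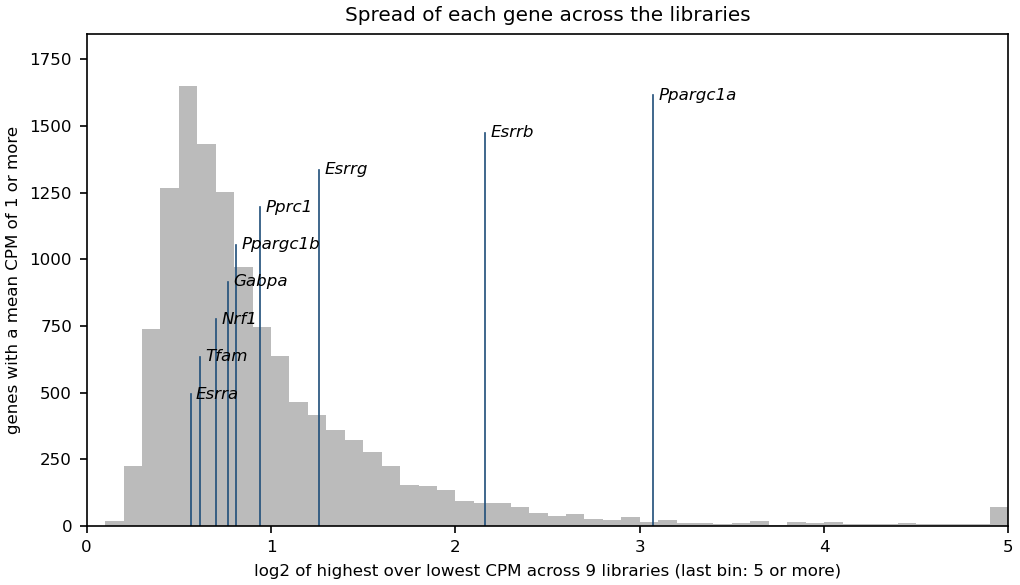
Histogram of the highest over the lowest CPM of each of the 12260 genes with a mean CPM of 1 or more (log2 axis, number of genes per bin), with vertical lines for the 9 genes, whose line heights carry no value. Ppargc1a (8.41-fold) and Esrrb (4.47-fold) lay in the tail and Esrra (1.48-fold) below the median of 1.70-fold.

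The relation of the 9 genes to Ucp1 could not be given as a coefficient. Ucp1 values left a gap between 606 and 2704 CPM that took 60.9% of their range on the log2 scale, above the limit of 50% set for a pooled correlation, and neither side held the 6 libraries that a correlation within it needs. Side by side, library 6 had the lowest Ucp1 level (396 CPM) and the highest Ppargc1a level (392 CPM). Library 2 had the highest Ucp1 level (4620 CPM), with Ppargc1a at 115 CPM. Libraries with similar Ucp1 levels could differ in Ppargc1a: library 8, at 445 CPM of Ucp1, held 92.8 CPM of Ppargc1a, against 392 CPM in library 6. Libraries 2 and 3, at 4620 and 3937 CPM of Ucp1, held 115 and 46.7 CPM of Ppargc1a.

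Pairs of the 9 genes were compared over the 9 libraries, since none of them had a gap of over 50% of its range (45.3% at most, for Ppargc1a). Of 36 pairs, 16 had a positive and 20 a negative Spearman rho. An unadjusted p under 0.05 was reached by 7 pairs for rho (exact two-sided permutation test) and by 7 for Pearson's r of log2(CPM + 1). After Benjamini-Hochberg adjustment over the 36 pairs it was 0 pairs by either coefficient, with the smallest adjusted p at 0.0812 for rho and 0.113 for r (exact permutation tests). The libraries mix both guides in unknown order, which the permutations do not take into account. The share of mitochondrial counts also differed between libraries, so the values are descriptions. How many pairs of all genes had an unadjusted p under 0.05 was not computed. The counts of 7 pairs therefore stand without a background.

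Esrrb and Tfam gave the highest rho, 0.88 (exact permutation p = 0.00308, adjusted p = 0.0812), with r = 0.81 (exact permutation p = 0.0125, adjusted p = 0.125). Esrra and Esrrb gave a rho of 0.87 (exact permutation p = 0.00451, adjusted p = 0.0812), with r = 0.83 (exact permutation p = 0.00695, adjusted p = 0.125). Libraries 9 and 8 held the 2 highest values of Esrra, Esrrb and Tfam, and without the 2 libraries farthest from the median of the first gene r was 0.55 and rho 0.79 for Esrrb and Tfam, and r was 0.62 and rho 0.71 for Esrra and Esrrb. Esrra and Tfam gave a rho of 0.80 (exact permutation p = 0.0138, adjusted p = 0.0996) and r = 0.75 (exact permutation p = 0.0228, adjusted p = 0.164), and r was 0.42 and rho 0.61 without those 2 libraries. Gabpa and Tfam gave a rho of 0.83 (exact permutation p = 0.00827, adjusted p = 0.0992) and r = 0.79 (exact permutation p = 0.0139, adjusted p = 0.125), and r was 0.86 and rho 0.93 without the 2 libraries farthest from the median of Gabpa. With TMM library sizes the rho of Gabpa and Tfam was 0.67 (exact permutation p = 0.0589), and without the 10 most abundant genes in the library size that of Esrra and Tfam was 0.62 (exact permutation p = 0.0857).

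Ppargc1a and Pprc1 gave a rho of 0.73 (exact permutation p = 0.0311, adjusted p = 0.160) and r = 0.71 (exact permutation p = 0.0312, adjusted p = 0.187). Without libraries 6 and 7 r was 0.19 and rho 0.43. Negative values were found for Ppargc1b with Esrra, rho -0.80 (exact permutation p = 0.0138, adjusted p = 0.0996) and r = -0.85 (exact permutation p = 0.00314, adjusted p = 0.113), and without libraries 5 and 4 r was -0.79 and rho -0.57. Pprc1 and Esrrb gave a rho of -0.73 (exact permutation p = 0.0311, adjusted p = 0.160) and r = -0.67 (exact permutation p = 0.0496, adjusted p = 0.246), with r = -0.51 and rho = -0.75 without libraries 6 and 7. Ppargc1a and Esrra, a coactivator and the receptor it is known to serve, gave a rho of -0.18.

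**Figure D5:**
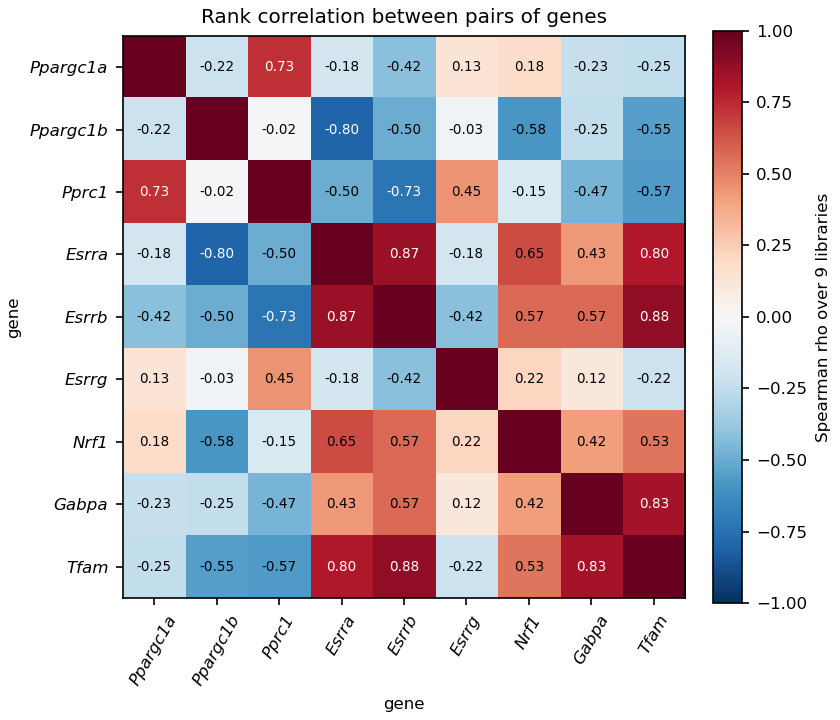
Spearman rho between each pair of the 9 genes over the 9 libraries, from -1 (blue) to 1 (red). Esrrb with Tfam was highest at 0.88 and Ppargc1b with Esrra lowest at -0.80, and 0 of the 36 pairs passed after adjustment.

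Genes whose pattern over the 9 libraries was most like that of 4 of the 9 genes were listed by Pearson's r of log2(CPM + 1) among 7512 other genes with a mean of at least 10 CPM, as a description without a test. For Ppargc1a they were Hmgxb3 (r = 0.96), Ddit3 (0.95), Dusp16 (0.95), Col5a3 (0.94) and Zfyve1 (0.93). Ddit3, which encodes the stress factor CHOP, ranged from 8.06 CPM in library 3 through a median of 12.3 CPM to 32.8 CPM in library 6. Without library 6 their r ran from 0.83 to 0.90 and they took places 10 to 60 of 7512. The choice of the top 5 thus depended on that library, since 0 of these 5 stayed in it, while all stayed among the 60 most like genes. For Esrrg they were Camsap2 (0.94), Ppp1r15a (0.94), Siah1a (0.94), Rnf214 (0.94) and Ash1l (0.92). Ppp1r15a, which encodes the stress-induced phosphatase subunit GADD34, ranged from 12.1 CPM in library 8 through 16.2 CPM to 45.6 CPM in library 6, and without that library the r of these 5 ran from 0.84 to 0.90 and 2 of them stayed among the 5 most like genes.

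For Esrra the most like genes were Opa3 (0.97), Nsun5 (0.96), Rhot2 (0.96), Pgp (0.96) and C030006K11Rik (0.95), all highest in library 9. Opa3 encodes a protein of the mitochondrial membranes and Rhot2 a GTPase of the outer membrane that anchors mitochondria to their motors. For Tfam they were Ciao1 (0.98), Agpat5 (0.98), Etfdh (0.96), Elof1 (0.96) and Mcur1 (0.96), all highest in library 8. Etfdh, which passes electrons from fatty acid oxidation to ubiquinone, ranged from 641 CPM (library 5) through 728 CPM to 916 CPM (library 8), or 1.43-fold. Without the library where the gene itself was highest, 3 of the 5 stayed among the 5 most like Esrra (without library 9) and 2 of the 5 among those most like Tfam (without library 8), with r from 0.93 to 0.96 and from 0.93 to 0.98.

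Other genes of the pathway were taken from lists and are described without a test, since no library has a guide. Of 25 upstream regulators and partners of PGC-1, all 25 had a mean of at least 1 CPM, and their median range was 1.71-fold against 1.70-fold for all genes. Lpin1, the phosphatidate phosphatase that also acts as a PGC-1α partner, was the most abundant of them with Pparg and Mef2d: its level ran from 421 CPM (library 5) through 554 CPM to 745 CPM (library 8). Pparg, the master factor of adipocytes, ran from 216 to 323 CPM and Mef2d from 147 to 250 CPM, both highest in library 6. A range of at least 2-fold was found for 7 of the 25, where 32.3% of all genes passed, and 0 reached 4-fold, where 6.68% did. Mef2c, a muscle and endothelial factor, had the widest, from 5.94 CPM in library 2 to 22.9 CPM in library 5. These were the libraries with the least and the most skeletal muscle marker RNA. Library 5 also had the highest endothelial marker sum (537 CPM), and the part of either tissue in the level of Mef2c was not tested. Ppara, the fatty acid receptor that PGC-1α serves, ran from 80.1 CPM (library 8) to 193 CPM (library 6), and Nrip1, whose product RIP140 represses oxidative genes, from 13.9 CPM (library 2) to 34.9 CPM (library 6). Prkaa2, a catalytic subunit of the energy sensor AMPK, ran from 21.9 CPM (library 2) to 58.9 CPM (library 9). Ncoa1, a steroid receptor coactivator, ran from 53.0 to 110 CPM, and Sirt1, the deacetylase that acts on PGC-1α, from 7.33 to 16.0 CPM. Perm1, a muscle-enriched regulator induced by PGC-1 and the receptors, ran from 34.5 CPM (library 4) to 76.2 CPM (library 8).

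The list of mitochondrial DNA maintenance and transcription held 15 genes, among them Gabpb1 and Gabpb2, which encode subunits of the nuclear factor GABP. All 15 had a mean of at least 1 CPM, and the median range was 1.51-fold against 1.70-fold for all genes. Lonp1, the matrix protease that degrades TFAM, ran from 152 CPM (library 4) to 252 CPM (library 9). Tfb2m, the mitochondrial transcription factor that melts the promoter, ran from 50.6 to 71.0 CPM. Polrmt, the mitochondrial RNA polymerase, ran from 41.2 CPM (library 4) to 76.6 CPM (library 9). The summed level of the 15 genes was lowest in library 4 (434 CPM) and highest in library 9 (621 CPM), as for Nrf1 and Esrrb. It was taken with the column sum only. Of the 15, 1 passed 2-fold, against 32.3% of all genes: Polg2, a subunit of the mitochondrial DNA polymerase, at 2.11 to 4.39 CPM.

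The list of 22 nuclear genes known as targets of these receptors and factors held genes of respiration and fuel oxidation. It also held Vegfa, which encodes a secreted factor. All 22 had a mean of at least 1 CPM, and the median range was 1.43-fold against 1.70-fold for all genes. Atp5b (3782 to 4978 CPM) and Cs (2017 to 2569 CPM), which encode an ATP synthase subunit and citrate synthase, were among the most abundant, both highest in library 8, where Tfam and Gabpa were also highest. Of the 22, 1 passed 2-fold, against 32.3% of all genes: Pdk4, the kinase that holds back pyruvate oxidation, ran from 613 CPM in library 8 through 1195 CPM to 2438 CPM in library 6. The 8.41-fold range of Ppargc1a stood beside a 1.20-fold range of the summed level of these 22 genes. That sum ran from 26716 CPM (library 4) to 32173 CPM (library 8) and was not taken with other library sizes. The mitochondrial genome took 33.2% of counts in library 4 and 24.9% in library 8, and its part in the sum was not tested.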

How the data were processed

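RNA from interscapular brown fat was represented by 9 samples and 9 columns of whole-number counts per Ensembl gene. The authors deposited these raw counts without normalization; per the submitters' processing notes FastQC, STAR and DESeq2 and the build GRCm39 were named, without versions or roles. No source used here gives the counter, strand setting or annotation release. Column names were placed in the tissue, not in a guide; 0 columns were left out.

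CPM used the column sum. Symbols were matched for 52083 of 55416 identifiers (94.0%); the rest held 0.12% to 0.398% of counts. Exon lengths came from GENCODE vM21 (GRCm38), not from the build the notes name. BLAST 2.17.0 found no transcript of another gene, apart from the overlapping neighbours named, with 95% identity over 150 bases. No pair of libraries agreed within sampling noise (chi-square per degree of freedom at least 9.99). edgeR 4.0.16 (TMM) and DESeq2 1.42.0 served for alternative library sizes only. Permutation tests enumerated all 362880 pairings; with NumPy 2.4.6 and pandas 2.3.3 in Python 3.11.15, the code was tested on simulated data. Genes of each list were named as the 3 of highest mean CPM and those with a range of at least 2-fold, except 1 gene of the respiration list that is not reported here; the planned naming by correlation with Ucp1 was dropped with that correlation, so those named by range were chosen after their values were seen, as were the motifs and the pairs described. Library numbers follow column order. The members and lists were chosen with earlier results of these data known.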

Additional observations from a re-analysis of the deposited data

Results flagged for a closer look

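Values were tested for a single library far from the rest, by the gap to its nearest neighbour over the whole range of the 9 libraries against Dixon's 95% critical value for 9 values, for 18 quantities. Chance flags about 1 in 20. The level of Ppargc1a in library 6, 392 CPM, was flagged, with a gap of 0.703 of the range. On the log2 scale that gap was 0.453 and would not be flagged. The summed level of the 22 genes of the respiration list in library 8, 32173 CPM, was also flagged. That level used the column sum as library size, and its gap under other sizes or on the log2 scale is not given. The mitochondrial genome took 24.9% of counts in library 8, in a range of 22.3% to 33.9%. Its part in this flag was not tested.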

How the results depend on the processing

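The median CPM of each of the 9 genes moved by less than the spread between libraries under TMM, DESeq2 size factors, library sizes without the 10 most abundant genes and library sizes without the mitochondrial genome (the last chosen after seeing the data). These sizes moved the median of all genes in a library by -0.13 to 0.14 on the log2 scale. Leaving out each library in turn moved the median of Ppargc1a between 88.5 and 104 CPM, of Esrra between 138 and 139, of Esrrb between 4.02 and 5.21 and of Tfam between 23.8 and 25.3 CPM. The range of Ppargc1a was 3.20-fold without library 6; no other range moved by over 1.5 times when a library was left out or rescaled. The 7 pairs with an unadjusted p under 0.05 (exact permutation) kept the sign of rho in each of these settings. Of these 7, 6 stayed under 0.05 with TMM, 7 with DESeq2 sizes, 5 without the 10 most abundant genes, 5 without the mitochondrial genome and 4 to 6 with a library left out. The number of all pairs under 0.05 ran from 5 to 9 with a library left out and from 6 to 8 under the other sizes; after adjustment it was 0 in each. Correlations with Ucp1 under other settings, and the count of all genes correlated with it, were not run, because no pooled coefficient was given. No paired analysis was possible because no column could be tied to a replicate number or a guide. Depth limits Esrrb (36 to 167 counts) and Nrf1 (105 to 189 counts) most.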

Other observations

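Ucp1 itself fell into separate ranges. It stood at 396 CPM in library 6, 445 in library 8, 459 in library 9 and 606 CPM in library 7, and at 2704 CPM in library 4, 3652 in library 5, 3848 in library 1, 3937 in library 3 and 4620 CPM in library 2. The share of counts from the mitochondrial genome was 25.8%, 24.9%, 22.3% and 26.5% in the first 4 of these libraries, in that order, and 33.2%, 33.9%, 33.8%, 31.8% and 31.5% in the other 5. These values were not used to place a library under a guide, and no average or test over them is given.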
